A study of Mus musculus with 23 samples.

Results

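The mitochondrial genome of the mouse is a small circle of DNA that codes for 13 proteins of the respiratory chain, 2 ribosomal RNAs (rRNAs) and 22 transfer RNAs (tRNAs). Described here are 10 of its protein genes, chosen by name: mt-Co1, mt-Co2, mt-Co3, mt-Cytb, mt-Nd1, mt-Nd2, mt-Nd4, mt-Nd5, mt-Nd6 and mt-Atp6. They were found by Ensembl ID among 55487 gene IDs counted in 23 RNA libraries of mouse hippocampal neurons, and 7 of the 10 carried enough counts to be tested. The 3 others, mt-Co2, mt-Co3 and mt-Atp6, held 1 count between them.

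Neurons of C57Bl/6 pups at postnatal day 1 were grown in microfluidic chambers that let axons cross into a compartment of their own. Every culture was given magnetic nanoparticles (MNPs) at 5 µg/ml. Stretched cultures lay in a magnetic field gradient of 50 T/m from day in vitro 1 to 6, which pulls on the particles, and in control cultures the gradient was null. RNA came from the axonal side, labelled as a pure axonal preparation, or from the cell-body side, whose label names the total cell culture and whose protocol names the somatodendritic compartment. Of the axonal libraries 5 were control and 6 stretched, and of the soma libraries 6 were control and 6 stretched.

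Total counts per library ranged from 16369153 to 43048953, so that a floor of 3 counts was worth 0.0697 to 0.183 counts per 1000000 counts of the library (CPM). Between 4263 and 10242 genes had a count in an axonal library and between 22452 and 24575 in a soma library. Summed astrocyte markers (8 genes, each with counts in every group) ranged from 4651 to 25629 CPM in control axons, from 4790 to 19604 CPM in stretched axons and from 5120.5 to 14075 CPM in the somata. Their medians were 18261 CPM in control axons, 8163 CPM in stretched axons, 8518 CPM in control somata and 8506 CPM in stretched somata. Summed neuronal markers (7 genes) ranged from 2892 to 5709 CPM in axons and from 6822 to 8755 CPM in somata. Summed markers of somatodendritic or nuclear RNA (7 genes) ranged from 1035 to 3311 CPM in control axons and from 1029 to 3277 CPM in stretched axons. In control somata they ranged from 2542 to 3382 CPM and in stretched somata from 2023 to 2936 CPM. Over the axonal libraries, summed markers ranged from 0 to 494 CPM for microglia and from 0 to 438 CPM for the oligodendrocyte lineage. Those of fibroblasts or mural cells ranged from 0 to 1004 CPM. Of 4 endothelial markers, Cldn5, Cdh5 and Kdr had no count in any axonal library. What part RNA of astrocytes, of other cells or of cell bodies has in the axonal values was not tested. The labels do not say whether libraries of a group came from separate cultures or animals, so the p-values measure the spread between these libraries only.

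Mitochondrial messages are made inside the organelle as long transcripts of each DNA strand, cut at the tRNAs between them, and translated on mitochondrial ribosomes built around mt-Rnr1 and mt-Rnr2. Their products are core subunits of the complexes whose other subunits are coded in the nucleus: mt-Nd1 to mt-Nd6 belong to complex I, mt-Cytb to complex III, mt-Co1 to mt-Co3 to complex IV, and mt-Atp6 to complex V, the ATP synthase. In neurons, mitochondria travel along microtubules into axons and carry this RNA with them, while nuclear-coded proteins reach them from outside. Of the protein genes only mt-Nd6 is read from the opposite strand. In poly(A)-primed libraries such as these, transcripts are captured by their tails, which are short on mitochondrial messages. What part capture has in the values below, those of mt-Nd6 and the rRNAs included, was not tested.

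All 10 genes are single-exon genes of the mitochondrial chromosome (M), with coordinates given on GRCm38, the build also called mm10. Complex I genes lie at chrM:2751-3707 (mt-Nd1, ENSMUSG00000064341), chrM:3914-4951 (mt-Nd2, ENSMUSG00000064345), chrM:10167-11544 (mt-Nd4, ENSMUSG00000064363), chrM:11742-13565 (mt-Nd5, ENSMUSG00000064367) and, on the minus strand, chrM:13552-14070 (mt-Nd6, ENSMUSG00000064368). The gene of complex III lies at chrM:14145-15288 (mt-Cytb, ENSMUSG00000064370). Those of complex IV lie at chrM:5328-6872 (mt-Co1, ENSMUSG00000064351), chrM:7013-7696 (mt-Co2, ENSMUSG00000064354) and chrM:8607-9390 (mt-Co3, ENSMUSG00000064358), and that of complex V at chrM:7927-8607 (mt-Atp6, ENSMUSG00000064357). The ends of mt-Nd5 and mt-Nd6 overlap on opposite strands. Whether the counting used strand is not given in the sources used here, so reads from the strand opposite a gene cannot be told apart from its own.

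The counts of the members went with how far their sequence is found elsewhere in the genome. A stretch of chromosome 1, chr1:24611535-24616197, holds 7 unprocessed pseudogenes that are near-identical copies of a run of mitochondrial genes, in 4663 bases. The sequences below, read 5′ to 3′ from the GENCODE transcripts of GRCm38, show 3 genes beside their copies because they differ in how far the copy can take the place of the gene. Capitals mark the bases that differ between gene and copy, and positions are counted from 1 at the 5′ end of the mitochondrial gene.
mt-Co2, positions 1 to 60: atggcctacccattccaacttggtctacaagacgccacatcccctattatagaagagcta
Gm28661, chr1:24614885-24615565, minus strand: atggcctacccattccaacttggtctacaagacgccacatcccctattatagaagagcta
mt-Co1, positions 1054 to 1113: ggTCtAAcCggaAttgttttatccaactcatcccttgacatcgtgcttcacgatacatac
Gm29216, chr1:24615706-24616197, minus strand: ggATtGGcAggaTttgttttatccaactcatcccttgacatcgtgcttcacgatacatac
mt-Nd3, positions 1 to 60: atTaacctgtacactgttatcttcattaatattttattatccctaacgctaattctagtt
Gm28438, chr1:24612775-24613119, minus strand: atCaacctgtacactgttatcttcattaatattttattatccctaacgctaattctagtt
Over the 681 bases that Gm28661 shares with mt-Co2 there was no difference. Gm29216 covers 492 bases of mt-Co1, from position 1054 on, with 6 differences (T1056A, C1057T, A1059G, A1060G, C1062A and A1066T), all near the start of the copy. Gm28438 covers 345 bases of mt-Nd3, a complex I gene outside the 10, with the single difference T3C.

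The share of each gene that is also present elsewhere was measured as the percentage of its 150-base windows, the length of a read, found unchanged in a transcript of another gene. It was 99.4% for mt-Co2, 99.4% for mt-Atp6 and 99.8% for mt-Co3. It was 59.2% for mt-Nd4 and 23.6% for mt-Co1, and 0% for mt-Nd1, mt-Nd2, mt-Nd5, mt-Nd6 and mt-Cytb. The members with over 90% of windows shared are the 3 that were not counted.

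mt-Co2 and mt-Co3 had no count in any of the 23 libraries, and mt-Atp6 had 1 count, in control axon replicate 1. The floor of 3 counts therefore limits each of them to at most 0.183 CPM in any library, as counted here, which covers counting error only. Their copies took few counts as well: 3 for Gm28661, 8 for Gm28437 (the copy of mt-Co3) and 41 for Gm10925 (the copy of mt-Atp6), summed over the libraries. A separate total held reads that aligned to more than 1 place, 5.43% to 7.56% of reads in soma libraries and 6.48% to 13.4% in axonal libraries, and these reads enter no gene's count. How many of them came from the 3 genes cannot be told from the deposited counts, so a count of 0 here says nothing of whether these genes were expressed. mt-Nd4 and mt-Co1 have 502 and 1066 windows that no other transcript shares.

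**Figure D1:**
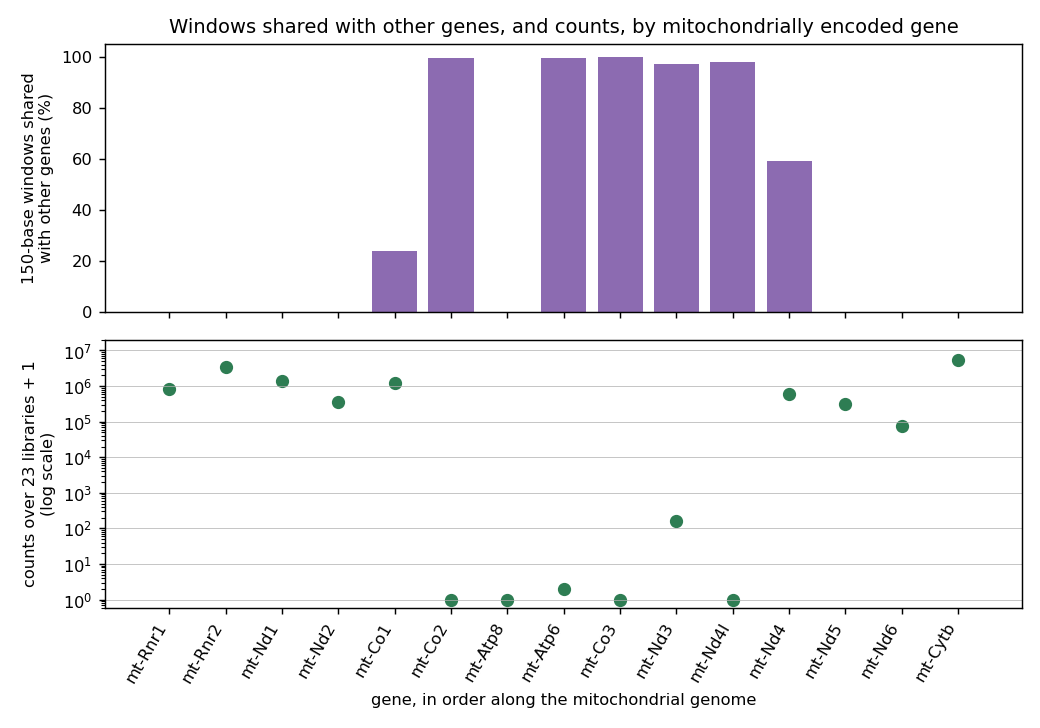
Upper panel, the percentage of 150-base windows of each mitochondrially encoded protein gene and rRNA that another gene's transcript also holds. Lower panel, counts summed over the 23 libraries plus 1, on a log scale, where a point at 1 stands for 0 counts. The genes with 97.0% or more of windows shared have at most 161 counts, while those with 0% shared have at least 75813, except mt-Atp8, which has none.

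Of the 3 protein genes outside the 10, mt-Nd4l and mt-Nd3 showed the same division and mt-Atp8 did not. mt-Nd4l, with 98.0% of windows shared, had no count, and mt-Nd3, with 97.0% shared, had 161 counts in 9 libraries. mt-Atp8, the shortest protein gene, had no count although none of its 55 windows was shared. Of the 22 tRNA genes, 7 had no count and 15 had some, and apart from mt-Tp, with up to 505 counts, no tRNA gene passed 119 counts in a library.

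mt-Nd3 and its copy Gm28438 were mostly counted in different libraries. mt-Nd3 had 10 or more counts in 9 libraries: control soma replicates 4, 5 and 6, stretched soma replicates 4, 5 and 6, control axon replicate 5, and stretched axon replicates 4 and 6. Gm28438 had 5 or more counts in 12 others, and no library had 5 or more of both. In control soma replicates 4 and 6 and stretched soma replicate 5, 1 count of Gm28438 stood beside 10, 13 and 30 counts of mt-Nd3. Neither was counted in control axon replicate 7 or stretched axon replicate 5. The division crosses the treatment and takes in libraries of every group, and it follows the replicate number. Gm28438 had 5 or more counts only in libraries numbered 1, 2, 3 and 8, and mt-Nd3 had 10 or more only in those numbered 4, 5 and 6. What libraries of the same number share was not tested. The base at position 3 is the only difference between the sequences.

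**Figure D2:**
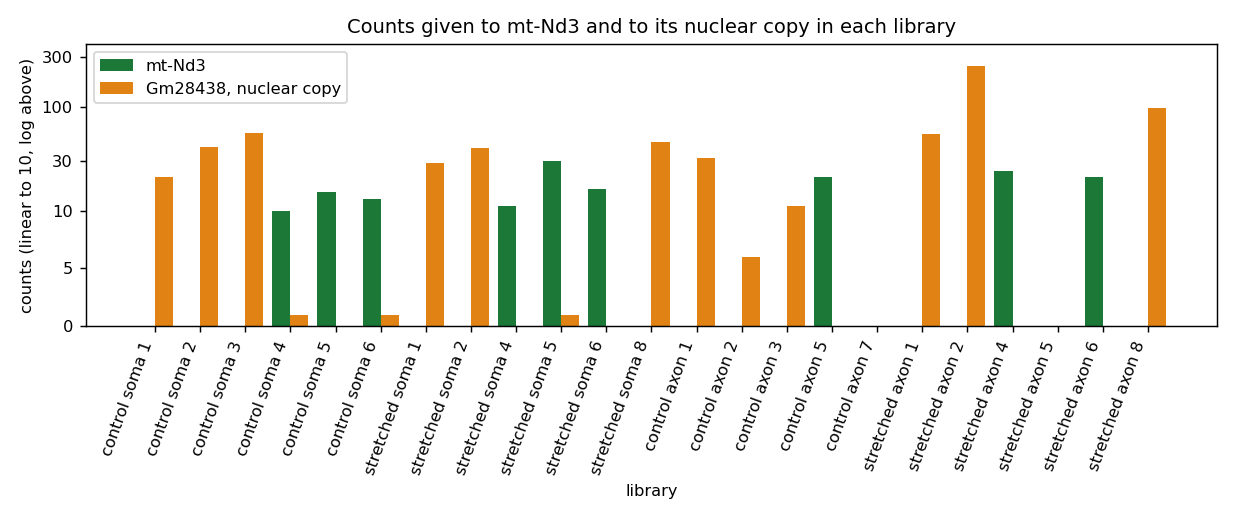
Counts given to mt-Nd3 (green) and to its chromosome 1 copy Gm28438 (orange) in each of the 23 libraries, on an axis that is linear to 10 and logarithmic above. No library has 5 or more counts of both, and 2 libraries have neither.

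Among the soma libraries the same division appeared in the Y-linked gene Eif2s3y, a translation factor subunit carried by males. The 6 libraries with 5 or more counts of Gm28438 had 24.7 to 28.7 CPM of Eif2s3y, and the 6 with 10 or more counts of mt-Nd3 had 5.39 to 13.2 CPM. Each side holds 3 control and 3 stretched libraries. mt-Nd5 and mt-Nd6, neighbours on opposite strands, were lower on the side with less Eif2s3y. mt-Nd5 ran from 395 to 485 CPM on the high side and from 279 to 385 CPM on the low side. mt-Nd6 ran from 82.4 to 101 CPM on the high side and from 50.9 to 80.3 CPM on the low side. These 2 of the 7 counted members did not overlap between the sides, against 5.53% of the 9529 genes that averaged 10 CPM or more. The labels give no batch, and the sides were set by the data after the values were seen, so no test was made.

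Levels within a group are compared per length, as CPM per kilobase of the whole gene. In control somata the order of the medians was mt-Cytb with 3922 (lowest 3665, highest 4267), mt-Nd1 with 1883 (1479 to 1982), mt-Co1 with 434 (319.5 to 542), mt-Nd4 with 427 (368 to 453), mt-Nd2 with 249 (223 to 291), mt-Nd5 with 203 (153 to 266) and mt-Nd6 with 142 (98.2 to 195). mt-Cytb and mt-Nd1 stood apart from their neighbours in this order, while the ranges of mt-Co1 and mt-Nd4 overlapped, as did those of mt-Nd2 with mt-Nd5 and of mt-Nd5 with mt-Nd6. In stretched somata the order of the medians began with mt-Cytb at 4882 and mt-Nd1 at 1629, and then mt-Nd4 at 464 and mt-Co1 at 390.1 had changed places within overlapping ranges. In control axons mt-Cytb led with 8718 (4601 to 39549), followed by mt-Nd1 with 2914, mt-Co1 with 2224, mt-Nd4 with 1143, mt-Nd2 with 846, mt-Nd6 with 292 and mt-Nd5 with 226. In stretched axons the medians were 7133 for mt-Cytb, 3112 for mt-Nd1, 2238 for mt-Co1, 776 for mt-Nd4, 604 for mt-Nd2, 392 for mt-Nd5 and 332 for mt-Nd6. The ranges of neighbours overlapped widely in both axonal groups. Within every axonal library, however, mt-Cytb was the highest of the members per kilobase. Whether windows shared with copies affect the values of mt-Nd4 and mt-Co1 was not tested.

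Together the counted members made up 0.787% to 0.870% of counts in control somata and 0.895% to 0.977% in stretched somata. In axons the share varied more, from 1.10% to 6.83% in control and from 0.895% to 5.40% in stretched libraries. Control axon replicates 1 (4.55%) and 3 (6.83%) and stretched axon replicate 2 (5.40%) held the highest shares. mt-Cytb supplied 41.3% to 67.0% of the members' counts in every library.

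**Figure D3:**
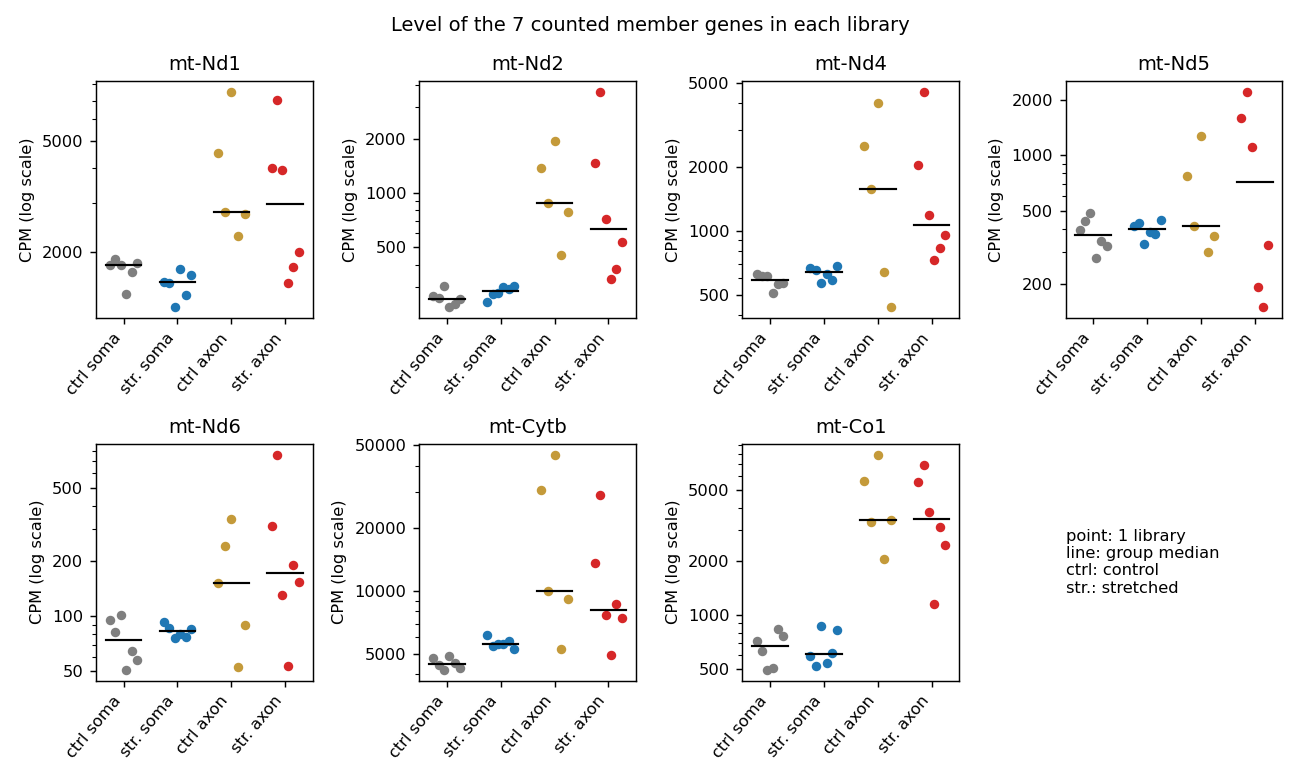
CPM (log scale) of the 7 counted members in each library, 1 point per library in order of replicate number, with the group median as a line. Soma values lie close together, and axonal values spread over up to 14.8-fold within a group. mt-Co1 and mt-Nd2 are each higher in every axonal library than in any soma library.

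The comparison of stretched with control somata asks which transcripts of the cell-body side change under the pull. mt-Cytb, the cytochrome b of complex III, was the only member called higher, and none was called lower. It ranged from 4193 to 4881 CPM (median 4487) in control somata and from 5277 to 6191 CPM (median 5585) in stretched somata. Every stretched library lay above every control library, a separation found for 5.5% of genes averaging 10 CPM or more. The log2 fold change was 0.28 ± 0.07 (SE, n = 6 and 6), with an adjusted p of 0.0118 by edgeR's quasi-likelihood test with Benjamini-Hochberg adjustment over all genes. Of the 15632 genes tested, 25.1% were called, 11.2% as higher and 13.9% as lower, so 1 of 7 tested members is close to the share of all genes. The call was kept in 24 of 26 alternatives, among them 12 of 12 in which a library was left out. It was lost in a fit over all 4 groups (edgeR adjusted p = 1.00), whose estimate of spread takes in the axonal libraries. It was also lost among the 6 libraries with less Eif2s3y (0.28, edgeR adjusted p = 0.272). Without control soma replicate 4 that last fit kept the call, an alternative added after seeing the data. In bulk samples a change in the cells present and a change in RNA per cell cannot be told apart. Summed neuronal markers ranged from 7079 to 8755 CPM in control and from 6822 to 7449 CPM in stretched somata, and overlapped. Of the 7 neuronal markers, 4 were called lower and 1 higher. Summed markers of microglia (8 genes, all with counts) ranged from 38.4 to 76.3 CPM in control and from 28.3 to 36.4 CPM in stretched somata, without overlap. Among the 7 microglial markers tested, 2 were called lower and none higher. Those of the oligodendrocyte lineage (9 genes, with Sox10 at 0) ranged from 42.8 to 74.1 CPM (median 68.5) in control and from 39.9 to 57.5 CPM (median 44.5) in stretched somata, and overlapped. Their part in the soma results was not tested.

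The complex I members did not pass the test in somata. mt-Nd1 ranged from 1415 to 1896 CPM (median 1802) in control somata and from 1269.7 to 1742 CPM (median 1559) in stretched somata. Its log2 fold change was -0.23 ± 0.09 (SE, n = 6 and 6; edgeR adjusted p = 0.0702), and without control soma replicate 4, the lowest control library, it was -0.30 with an adjusted p of 0.0049. mt-Nd2 ranged from 232 to 303 CPM in control somata (median 259) and from 249 to 303 CPM in stretched somata (median 285), a log2 fold change of 0.08 ± 0.08. The edgeR estimates were 0.08 ± 0.07 for mt-Nd4, 0.03 ± 0.12 for mt-Nd5 and 0.10 ± 0.15 for mt-Nd6 (SE, n = 6 and 6), none past the threshold. mt-Co1, the catalytic subunit of complex IV, ranged from 494 to 837 CPM (median 671) in control somata and from 520.0 to 866 CPM (median 603) in stretched somata, with a log2 fold change of -0.04 ± 0.16.

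Both mitochondrial rRNAs were called lower in stretched somata. mt-Rnr1, of the small ribosomal subunit, ranged from 1431 to 2475 CPM (median 2236) in control and from 400.1 to 1635 CPM (median 1359) in stretched somata. mt-Rnr2, of the large subunit, ranged from 3818 to 5987 CPM (median 5655) in control and from 1715 to 4333 CPM (median 3683) in stretched somata. The groups overlapped for both, through control soma replicate 4, the lowest control library for each. The log2 fold changes were -0.82 ± 0.26 for mt-Rnr1 (edgeR adjusted p = 0.0374) and -0.68 ± 0.18 for mt-Rnr2 (adjusted p = 0.0172; SE, n = 6 and 6). With each library left out in turn, the call of mt-Rnr1 held 6 times of 12 (adjusted p up to 0.0768) and that of mt-Rnr2 12 times of 12 (up to 0.0410). For mt-Rnr1 and mt-Rnr2 in turn, both calls were lost with the replicate number as a block (edgeR adjusted p = 0.121 and 0.0736), with no filter on low counts (0.132 and 0.0757), in a fit over all 4 groups (1.00 for both) and among the 6 libraries with less Eif2s3y (0.276 and 0.288). That of mt-Rnr1 alone was also lost with total count as a covariate (edgeR adjusted p = 0.0610) and among the 6 libraries with more Eif2s3y (0.0657).

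The classes of transcript were also set against each other within each library. The summed counts of the 2 rRNAs were 0.667 to 0.981 times those of the members in control somata (median 0.964) and 0.217 to 0.654 times in stretched somata (median 0.553). Control soma replicate 4, at 0.667, was nearest to the stretched libraries, and stretched soma replicate 1 was lowest. The summed counts of the members were 0.845 to 1.07 times those of 31 nuclear-coded partner subunits of complexes I, III, IV and V in control somata (median 0.868) and 1.24 to 1.36 times in stretched somata (median 1.26). Again the groups did not overlap, and control soma replicate 4, at 1.07, stood between its group and the other. The partner subunits made up a median of 0.934% of counts in control and 0.723% in stretched somata, and the members 0.819% and 0.918%. mt-Cytb supplied a median of 53.9% of the members' counts in control and 61.5% in stretched somata. It was the only member called higher, so the ratios do not show that the members rose as a class. These ratios hold the members that were counted and are given with no test.

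**Figure D4:**
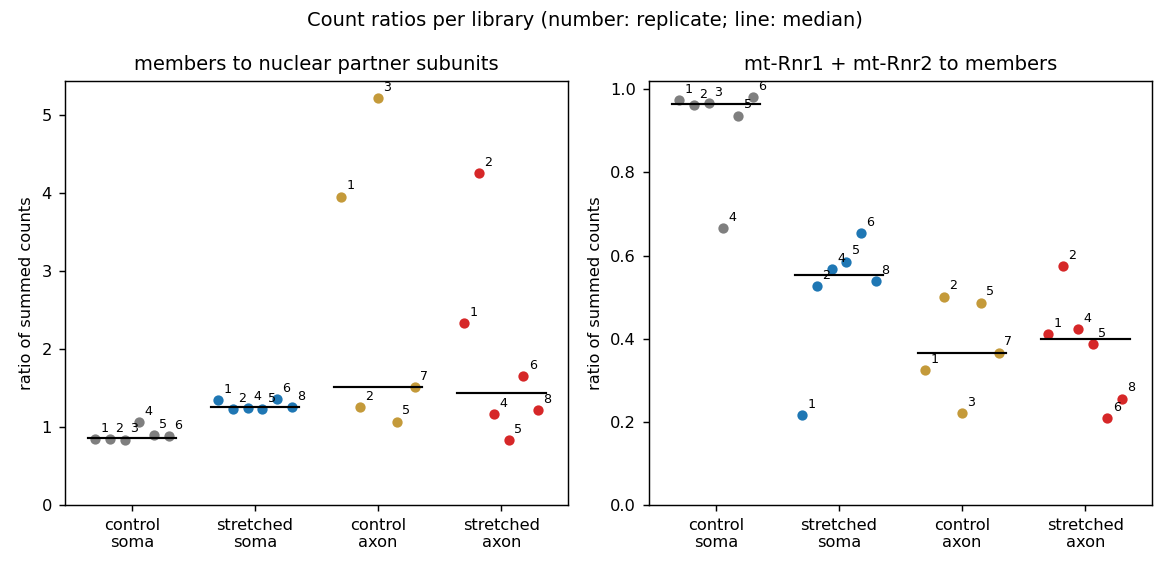
Ratios of summed counts in each library, with the replicate number beside each point and the group median as a line: members to 31 nuclear partner subunits (left) and the 2 mitochondrial rRNAs to members (right). In somata the left ratio is at most 1.07 in control and at least 1.24 in stretched libraries, and the right ratio is at least 0.667 in control and at most 0.654 in stretched libraries.

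Nuclear genes around the members changed in somata as well, and the values are set beside those of all genes tested, whose median log2 fold change was -0.03. Of all genes tested, 11.2% were called higher and 13.9% lower. Of the 31 partner subunits, 27 were called lower and none higher, with a median of -0.43. The 3 lowest were Ndufs7 of complex I (-0.74 ± 0.10), Uqcrh of complex III (-0.65 ± 0.12) and Atp5d of complex V (-0.64 ± 0.11; edgeR adjusted p = 0.0029, 0.0043 and 0.0040). Of 12 genes of mitochondrial transport and dynamics, 5 were called higher and none lower, with a median of 0.34. The 3 highest were the fission GTPase Dnm1l (0.59 ± 0.12), the inner-membrane fusion GTPase Opa1 (0.49 ± 0.12) and the outer-membrane fusion GTPase Mfn2 (0.41 ± 0.11; edgeR adjusted p = 0.0065, 0.0117 and 0.0173).

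The lists of genes that make and handle mitochondrial RNA held calls in both directions in somata, where 25.1% of all genes were called, and nothing particular to these lists is read from the counts. Of 16 genes of mitochondrial DNA transcription and replication, 3 were higher (the single-strand binding protein Ssbp1 at 0.40 ± 0.13, Mterf3 at 0.38 ± 0.13 and the helicase Twnk at 0.35 ± 0.12) and 2 lower (the polymerase subunit Polg2 at -0.52 ± 0.15 and Mterf4 at -0.45 ± 0.14). Of 19 tested genes of RNA processing and stability, Pnpt1, a nuclease and RNA import factor, was higher (0.49 ± 0.12), and Hsd17b10, a subunit of mitochondrial RNase P (-0.52 ± 0.11), and Ptcd2 (-0.46 ± 0.10) were lower. Of 12 translation factors, 2 were higher (Ptcd3 and Gfm1) and 3 lower, the lowest being the release factor Mtrf1l (-1.07 ± 0.35), the elongation factor partner Tsfm (-0.44 ± 0.09) and Tufm (-0.36 ± 0.10). Of 8 regulators of mitochondrial biogenesis, Gabpa (0.57 ± 0.16) and Pprc1 (0.52 ± 0.15) were higher and the nuclear receptor Esrra was lower (-0.69 ± 0.20).

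Transcript length moved with the change in somata. Among nuclear genes with a longest transcript of up to 1000 bases the median log2 fold change was -0.40, from 1000 to 2000 bases it was -0.30, from 2000 to 4000 bases -0.07, and above 4000 bases 0.21. Genes called higher made up 1.15% of the bin from 1000 to 2000 bases and genes called lower 30.8%. mt-Cytb, of 1144 bases, mt-Rnr1, of 955, and mt-Rnr2, of 1582, are of the length of the genes that tended lower, as are the partner subunits (median 1410 bases), while the transport genes are longer (median 5136.5 bases). The part of length in these results was not tested.

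In axons, the same contrast called no gene. Of 4947 genes tested by edgeR's quasi-likelihood test none was called (0.0%), 46 had an unadjusted p under 0.05, and DESeq2 called 18, limma voom 10 and an edgeR fit over all 4 groups 3870 genes, in each case no member. mt-Cytb was at 30485, 9974, 45245, 5263 and 9169 CPM in control axon replicates 1, 2, 3, 5 and 7, and ranged from 4945 to 28912 CPM (median 8160.2) in stretched axons. Control replicates 1 and 3 and stretched replicate 2 were high, and the groups overlapped. Its log2 fold change was -0.78 ± 0.57 (SE, n = 6 and 5; edgeR adjusted p = 1.00). The others ranged from -0.27 ± 0.36 for mt-Nd1 to 0.58 ± 1.17 for mt-Nd6, and the SE of mt-Cytb in axons was 8.27 times that in somata. A difference of the size seen in somata was not detectable among these libraries.

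The difference between the response of axons and somata was tested as an interaction over all 23 libraries, in which 21.8% of 16113 genes were called, 12.8% as higher and 8.93% as lower. This fit estimates the spread of each gene over all 4 groups together, although axonal libraries varied far more. The common coefficient of variation between libraries was 0.240 in the fit of somata, 2.39 in that of axons and 1.70 here. The calls, and the lack of them among the members, carry this limit. No member was called by edgeR, and none of the 7 tested had an unadjusted p under 0.05. The estimate farthest from 0 was that of mt-Cytb, -1.15 ± 0.58 (edgeR adjusted p = 0.239), which passed the threshold without stretched axon replicate 2 (-1.59, adjusted p = 0.0309).

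**Figure D5:**
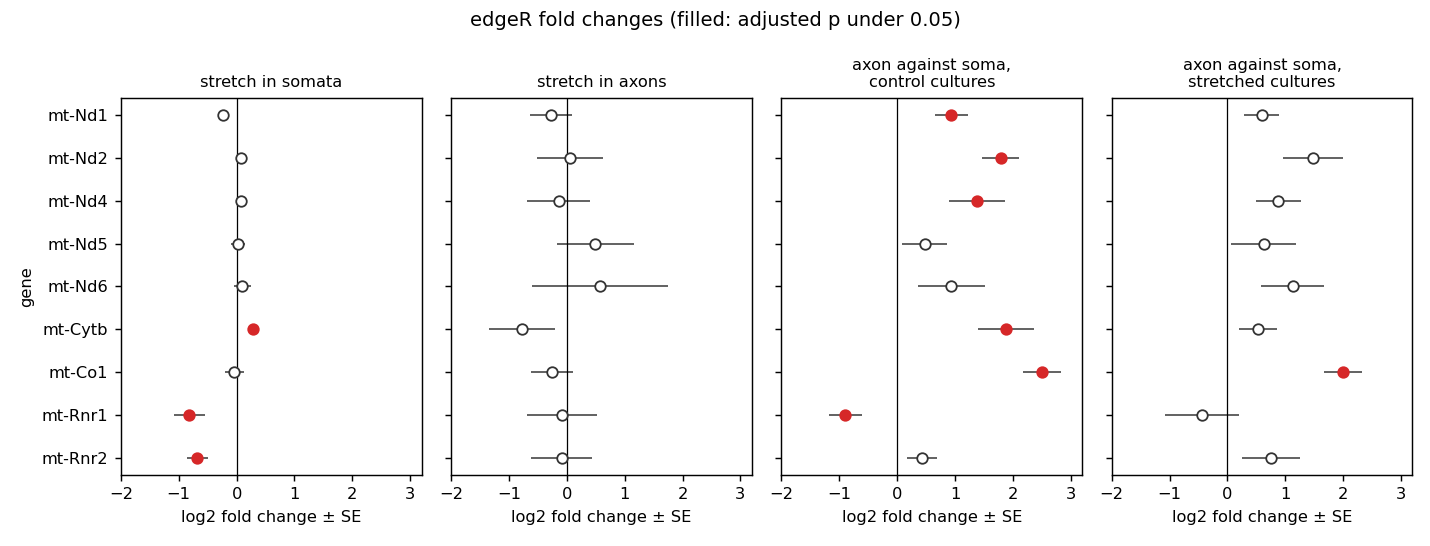
Log2 fold changes ± SE from edgeR of the 7 tested members and both mitochondrial rRNAs in 4 comparisons, filled where the adjusted p is under 0.05. In somata mt-Cytb is filled at 0.28 and both rRNAs below 0, in axons no gene is filled, and mt-Co1 is filled at 2.51 and 2.00 in the comparisons of axon with soma.

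Axonal and soma libraries of control cultures were compared to see which transcripts make up a larger part of the axonal RNA. mt-Co1 was at 5666, 3341, 7949, 2056 and 3436 CPM in control axon replicates 1, 2, 3, 5 and 7, against 494 to 837 CPM (median 671) in control somata. Each axonal library was above each soma library. The log2 fold change was 2.51 ± 0.32 (SE, n = 5 and 6; edgeR adjusted p = 4.9e-05). In this comparison 35.3% of 14728 genes were called, 0.856% as higher and 34.4% as lower, and the median over all genes tested was -1.40. With total counts as the only scaling that median was -1.27. More RNA per mitochondrion, more mitochondria per unit of RNA, and fewer other transcripts in axons cannot be told apart in these libraries.

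Of the 7 tested members 5 were called higher in control axons and none lower. mt-Nd2 was at 1370.0, 878, 1932, 453 and 785 CPM in control axons against 232 to 303 CPM in control somata, again without overlap, and its log2 fold change was 1.79 ± 0.33 (edgeR adjusted p = 0.0007). mt-Cytb, whose lowest axonal value of 5263 CPM lay just above its highest control soma value of 4881 CPM, rose by 1.88 ± 0.49 (adjusted p = 0.0085). mt-Nd1 was at 4531, 2788, 7531, 2278 and 2748 CPM against 1415 to 1896 CPM and rose by 0.94 ± 0.29 (edgeR adjusted p = 0.0249). mt-Nd4 was at 2516, 1575, 3991, 641 and 436 CPM against 508 to 624 CPM, so that replicate 7 fell below every soma library, and its estimate was 1.39 ± 0.48 (edgeR adjusted p = 0.0444). The values of mt-Co1, mt-Nd2, mt-Cytb and mt-Nd1 did not overlap, as for 19.5% of genes averaging 10 CPM or more. The calls of mt-Nd1 and mt-Nd4 rest on few libraries: with each of the 11 libraries left out in turn, mt-Nd1 kept its call 7 times and mt-Nd4 3 times, and mt-Nd4 stood at 0.81 without control axon replicate 3. Neither was called with no filter on low counts, and mt-Cytb was not called with the replicate number as a block (1.60, edgeR adjusted p = 0.188).

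mt-Nd5 and mt-Nd6 overlapped between control axons and somata. mt-Nd5 was at 771, 412, 1279.7, 300.2 and 367 CPM in the axons against 279 to 485 CPM in the somata, with a log2 fold change of 0.47 ± 0.39 (edgeR adjusted p = 0.522). mt-Nd6 was at 152, 241, 339.8, 53.1 and 89.4 CPM against 50.9 to 101 CPM, with 0.93 ± 0.58 (edgeR adjusted p = 0.325). The rRNAs went separate ways: mt-Rnr1 was called lower in control axons (-0.90 ± 0.28; edgeR adjusted p = 0.0266), with 722 to 2161 CPM against 1431 to 2475 CPM, and mt-Rnr2 was not called (0.44 ± 0.26; adjusted p = 0.292). In this comparison 34.4% of all genes were called lower, and the median log2 fold change over all genes was -1.40. The call of mt-Rnr1 was lost with total counts as the scaling, with no filter, with limma voom, in a fit over all 4 groups and 4 times of 11 when a library was left out. mt-Rnr2 was counted 2.42 to 4.29 times as often as mt-Rnr1 in somata and 5.15 to 10.2 times as often in axons, with no overlap.

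In stretched cultures mt-Co1 was the only member called in the same comparison, in which 29.3% of 14466 genes were called, 0.843% as higher and 28.4% as lower. It ranged from 1157 to 6911 CPM (median 3458) in stretched axons and from 520.0 to 866 CPM (median 603) in stretched somata, without overlap, and rose by 2.00 ± 0.33 on the log2 scale (SE, n = 6 and 6; edgeR adjusted p = 0.0003). mt-Nd2 ranged from 331 to 3649 CPM (median 627) against 249 to 303 CPM, also without overlap, with an estimate of 1.48 ± 0.52 (edgeR adjusted p = 0.0541). mt-Nd4 ranged from 729 to 4527 CPM (median 1069) against 566 to 683 CPM without overlap, with 0.88 ± 0.39 (edgeR adjusted p = 0.136). Ranges that did not overlap were found for 17.1% of genes averaging 10 CPM or more. mt-Cytb ranged from 4945 to 28912 CPM against 5277 to 6191 CPM, and its estimate was 0.53 ± 0.33 (edgeR adjusted p = 0.369). The estimates of mt-Nd1, mt-Nd5 and mt-Nd6 were 0.60 ± 0.30, 0.63 ± 0.57 and 1.13 ± 0.55, none past the threshold. With total counts as the only scaling, which moved the median of all genes from -1.13 to -0.73, 6 members were called, and with DESeq2 4 were. A member called in one kind of culture and not in the other is not shown to differ between them, since the interaction called none.

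Among the 31 partner subunits, 7 were called higher in control axons and none lower, with a median log2 fold change of -0.15. Over all genes tested, 0.856% were called higher and 34.4% lower, with a median of -1.40. The 7 are all subunits of complex IV, which has more genes among the 31 than any other complex. mt-Co1 belongs to it too, while the other members called higher (mt-Nd1, mt-Nd2, mt-Nd4 and mt-Cytb) belong to complexes I and III. The 3 highest of the 7 partner subunits were Cox6a1 (1.34 ± 0.23), Cox6c (1.34 ± 0.32) and Cox6b1 (1.29 ± 0.29; edgeR adjusted p = 0.0004, 0.0048 and 0.0032). In stretched cultures the same 3 were called, Cox6b1 with 1.40 ± 0.29, Cox6c with 1.34 ± 0.36 and Cox6a1 with 1.14 ± 0.26. Of the 31, 22 had counts in each of the 11 axonal libraries.

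The nuclear genes that make mitochondrial RNA were seldom counted in axons. None of the 16 genes of mitochondrial DNA transcription and replication had counts in every axonal library, and the median gene had them in 2 of 11, while all 16 had counts in each of the 12 soma libraries. Polrmt, the mitochondrial RNA polymerase, had no count in control axons, against 54.0 ± 5.07 CPM in control somata (SD, n = 6). It had counts in 2 of 6 stretched axons, whose mean was 50.5 ± 78.4 CPM, against 50.4 ± 1.98 CPM in stretched somata. Tfam packs mitochondrial DNA and starts its transcription. It had counts in 1 of 5 control axons (mean 4.93 ± 11.0 CPM), against 39.6 ± 5.88 CPM in control somata. In stretched axons Tfam had counts in 2 of 6, with a mean of 53.3 ± 100.1 CPM, against 42.9 ± 2.61 CPM in stretched somata. Both genes were thus counted in few stretched axons, while their group means there were not below those of stretched somata. In control cultures 7 of the 16 were called lower in axons, and 6 of those 7 had no count there, so no fold is given for them. Of 20 RNA processing genes 3, of 12 translation factors 3 and of 8 biogenesis regulators 2 were called lower, and none of these lists had a gene called higher. Of all genes tested in this comparison 34.4% were called lower and 0.856% higher. The shares of these 3 lists called lower are below that of all genes, and nothing particular to them is read from it. In stretched cultures 4 of the 16 genes of mitochondrial DNA transcription and replication were called lower in axons and none higher. Of all genes tested there 28.4% were called lower, so nothing particular to that list is read from its calls either. Axonal libraries had fewer genes with counts throughout, and the part of this in these absences was not tested.

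The ratio of mt-Nd6 to mt-Cytb, transcripts of opposite strands, was taken as log2 of the counts plus 1. It was -5.95 ± 0.44 in control somata and -6.09 ± 0.12 in stretched somata (SD, n = 6 each), which differ by -0.14 (p = 0.485 by an exact permutation test, two-sided, and 0.485 after adjustment over the 4 tests). In control axons it was -6.68 ± 0.84 (SD, n = 5) and in stretched axons -5.70 ± 0.46 (SD, n = 6), which differ by 0.98 (exact permutation p = 0.0476, 0.115 after adjustment), and the groups overlapped. Axons differed from somata by -0.73 in control cultures (exact permutation p = 0.0866, 0.115 adjusted) and by 0.39 in stretched cultures (exact permutation p = 0.0693, 0.115 adjusted). No difference of this ratio passed the adjustment.

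Across the 12 soma libraries, mt-Nd5 and mt-Nd6 had the closest course of any pair of members, with Pearson's r = 0.89, followed by mt-Nd4 and mt-Nd5 with 0.84 and mt-Nd4 and mt-Nd6 with 0.83. mt-Cytb and mt-Nd1 ran against each other (r = -0.66). These values are descriptions over 12 libraries that share their scaling and fall into the groups and sides above. The mean course of the 7 members was most like those of Fntb (r = 0.85), Tgm1 (0.82), Rida (0.79), Cd74 (0.78) and Kcnip3 (0.78) among 9524 genes over the 12 soma libraries, and it was unlike those of mt-Rnr1 (-0.03) and mt-Rnr2 (0.03). The genes named are the highest of 9524 values, whose median was -0.05, and whether chance gives values as high was not tested. The mean course also joins members that did not move together.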

How the data were processed

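Counts per Ensembl gene ID were taken as the authors deposited them, as raw whole numbers for each of 23 libraries. Per the submitters' processing notes, the build was mm10 and the tools FastQC 0.11.9, MultiQC 1.12, fastp 0.20.1, STAR 2.7.08a and HTSeq 0.13.5. The annotation, the strand setting and any use of molecular identifiers are not given in the sources used here. Per the labels' protocols, libraries came from poly(A) RNA, amplified with a low-input kit and read as pairs of 150 bases. Reads assigned to no gene, 14.2% to 24.4% of reads per library, were left out of library totals. A symbol was matched to 55141 of 55487 IDs.

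Genes were tested with edgeR 4.0.16 in R 4.3.3 (filterByExpr, TMM, robust quasi-likelihood F test), with Benjamini-Hochberg adjustment over all genes and a threshold of 0.05. Fits of 2 groups used their libraries alone, and the interaction used all 4 groups. Standard errors (SE) were obtained from F as the log2 fold change over its square root. The script was tested on simulated counts. Ratios were compared by exact permutation tests in scipy 1.17.1. Sequences, lengths and coordinates came from GENCODE transcripts of GRCm38, and windows of 150 bases were matched on either strand against transcripts of all other genes.

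All 10 members are named. Of other lists, at most the 3 highest and 3 lowest called genes per comparison are named, and mt-Nd3, Gm28438 and Eif2s3y were singled out after their values were seen. The members and lists were chosen with earlier results of these data known. The alternatives were RLE or total-count scaling, scaling without mitochondrial genes, no filter, DESeq2 1.42.0, limma 3.58.1, all groups together, a block for the replicate number, total count as covariate, soma libraries by Eif2s3y, leaving out both soma libraries numbered 4, and leaving out each library in turn. Analyses of the low side without control soma replicate 4 were added after seeing the data.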

Additional observations from a re-analysis of the deposited data

Results flagged for a closer look

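In 60 sets of values, each for 1 gene or ratio in 1 group, a library far from the others was looked for with Dixon's criterion, which chance meets in about 5% of sets. There were 14 such values, and they came from 3 libraries.

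Stretched axon replicate 2 stood above the other 5 stretched axons in mitochondrially encoded transcripts. It had 3649 CPM of mt-Nd2 (others up to 1465), 4527 CPM of mt-Nd4 (others up to 2045), 761 CPM of mt-Nd6 (others up to 312) and 28912 CPM of mt-Cytb (others up to 13723). It also had 4707 CPM of mt-Rnr1 (others up to 1272) and 26366 CPM of mt-Rnr2 (others up to 10531).

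Control soma replicate 4 lay toward the stretched somata. Its mt-Rnr2 was at 3818 CPM, with the other control somata from 5515 to 5987 CPM. Its ratio of members to partner subunits was 1.07 (others 0.845 to 0.899) and its ratio of rRNAs to members 0.667 (others 0.936 to 0.981). mt-Cytb made up 62.0% of its members' counts (others 52.5% to 55.1%).

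Stretched soma replicate 1 was low in mitochondrial rRNA and not in the members. It had 400.1 CPM of mt-Rnr1 (others from 1234) and 1715 CPM of mt-Rnr2 (others from 3478). Its ratio of rRNAs to members was 0.217 (others from 0.527), and its ratio of mt-Rnr2 to mt-Rnr1 was 4.29 (others up to 2.92).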

How the results depend on the processing

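In stretched against control somata 1 member was called, 2 with limma voom, with Eif2s3y side as covariate, on the high side alone and without both soma libraries numbered 4, and 0 with all 4 groups in 1 fit and on the low side alone. In control axons against somata 5 were called, and 3 with no filter. In stretched axons against somata 1 was called, 2 with RLE factors and with all 4 groups, 4 with DESeq2 and 6 with total counts only. Leaving out a library gave 1 to 2, 0 to 0, 3 to 5, 1 to 4 and, for the interaction, 0 to 1. Counts over all genes ranged over the alternatives from 0 to 6072 in somata (3929 as reported), 0 to 3870 in axons (0), 4542 to 10714 (5196) and 4174 to 10931 (4234) between compartments, and 0 to 4540 (3509) for the interaction.

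Of 1062 fold changes of the tested members and both rRNAs over the alternatives, 935 kept their direction and side of the threshold, 42 lost the call, 22 gained it and 63 changed sign, none of these past the threshold. In somata the log2 fold change became -0.0083 for mt-Nd2, 0.072 for mt-Co1, -0.035 for mt-Nd5 and -0.068 for mt-Nd6 on the Eif2s3y high side. mt-Co1 became 0.0056 with total counts only, 0.084 with all 4 groups and 0.044 with total count as covariate, and mt-Nd5 became -0.011 with that covariate and -0.0073 without both libraries numbered 4. mt-Nd5 between compartments of stretched cultures was -0.089 with limma voom. Without 1 library, mt-Co1 ranged from -0.12 to 0.073, mt-Nd5 from -0.061 to 0.10 and mt-Nd6 from -0.0066 to 0.19 in somata, mt-Nd1 from -0.58 to 0.084 and mt-Nd6 from -0.034 to 0.98 in axons, and mt-Nd5 from -0.016 to 0.62 between compartments of control cultures. The mt-Nd6 to mt-Cytb difference ranged from 0.73 to 1.30 in axons, -1.06 to -0.49 between control compartments and 0.30 to 0.55 between stretched ones. The cause was not tested.

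Same-numbered soma libraries deviated together with a mean correlation of 0.226 (0.0028 to 0.397 over 5 pairs). Pairs of control and stretched somata with different numbers had a mean of -0.036 (-0.512 to 0.487). Each of the 5 same-numbered pairs joined libraries of the same Eif2s3y side. Pairs with different numbers ran from -0.094 to 0.487 within a side and from -0.512 to 0.065 across sides. These means therefore cannot tell a shared number from a shared side. In the other comparisons the means were 0.013 to 0.064 for same-numbered pairs and -0.010 to -0.0026 for the rest. The main fits did not take the numbers as pairs, although the division of mt-Nd3 and Gm28438 follows them. With the replicate block the members called were 1, 0, 4, 1 and 0, mt-Nd1 in stretched axons was 0.071, and the mt-Nd6 to mt-Cytb ratio in axons differed by 0.80 (exact permutation test, p = 0.25).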
